A study of Secale cereale x Triticum turgidum subsp. durum with 48 samples.

Results

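Of 61115 probe sets tested, the 60 described here were those by which seedling leaf of triticale stood furthest above all later leaf. Triticale is a cereal hybrid of wheat and rye, measured here on Affymetrix wheat arrays, where a probe set is a group of short probes designed for 1 wheat transcript or a few close ones. The 60 were chosen from the leaf arrays themselves. Every probe set was ranked by the lowest seedling array minus the highest array of any later leaf sample, here called the margin, and the first 60 were taken.

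The series held 48 arrays in 16 groups, all of untreated plants from growth chambers. Seedling leaf (Zadoks stage 13, a numbered scale of cereal growth) had 3 arrays. Later leaf comprised 14 arrays: leaf at tillering (stage 23, n = 3), flag leaf at booting (stage 49, n = 5), and flag leaf in early and late senescence 22 and 30 days after flowering (stages 75 and 85, n = 3 each). These leaf samples and 4 internode stem groups (stages 21, 45, 59 and 75, n = 3 each) came from the cultivar AC Certa. So did the seed tissues at stage 85: embryo, endosperm and crease (n = 3 each), and pericarp and epiderm (n = 2 each). Emerged coleoptile and root (stage 7, 7 days after sowing, n = 3 each) came from AC Alta, and their RNA was extracted by another method. How many plants each sample pooled is not given in the sources used here, and in whole organs fewer cells of a type and less RNA per cell cannot be told apart.

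A grass leaf grows from dividing cells at its base, and cells mature as they move towards the tip. The coleoptile is the sheath that covers the first leaf as it pushes through the soil, and internodes lengthen from dividing zones of their own once the plant leaves the rosette stage. The flag leaf is the last leaf to form and loses its chloroplasts during senescence, when its nutrients move to the grain.

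Few of the 60 carried a gene name. The array's annotation gave a symbol to 5 of them, for 4 genes (LOC780595, LOC543233 on 2 probe sets, LOC542989 and LOC606366), and no function for any. It named 1273 probe sets in all. The other 55 have a probe set ID alone, so no member can be described by what its gene does. Members are given here by their rank in the margin, and the heatmap pairs each rank with its ID. The 60 came from 52 clusters, taken as the opening parts of the ID. Of these, 5 clusters held 13 members, 3 clusters with 3 each and 2 with 2 each, and members of a cluster may read the same transcripts. Suffixes that mark probes shared between transcripts were found on 12 members for x_at (20%, against 11.1% of all tested probe sets) and on 5 for s_at (8.33%, against 4.28%).

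None of the leaf markers listed for this work had a symbol on the array, so the leaf label was checked on petC, a name noticed after the annotation was read. It codes for the Rieske iron-sulfur protein of the chloroplast cytochrome b6f complex. Of its 2 probe sets, 1 read 13.86 ± 0.08 in seedling leaf (SD, n = 3), 13.77 to 13.81 in the means of the later leaf groups and 5.27 ± 0.24 in root. It was also high outside the leaf, at 13.19 in coleoptile, 13.54 in stem at stage 21 and 12.42 in endosperm, so it does not single out leaf. The other probe set was below background in all groups, at 3.46 in seedling leaf and 3.18 to 3.62 in later leaf. Signals are given as log2 values, with the base taken as 2 from their range, so a difference of 1 is a 2-fold change. A signal was taken as above background over 5.99, the level that 95% of the values of the 64 reporter probe sets did not exceed. Arrays of a group had a median correlation of 0.987 over all probe sets, and the lowest was 0.946. Leaf at tillering stood apart within itself. Its replicate 2 had a mean correlation of 0.971 with the arrays of flag leaf 22 days after flowering, whereas replicates 1 and 3 had 0.920 and 0.943.

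The margins, which chose the members and are given as a description, ran from 6.84 at rank 1 to 0.70 at rank 60, with a median of 1.22. Only 10 members had a margin of at least 2, and 37 had at least 1. Over all tested probe sets, 684 (1.12%) had a margin above 0. At the edge of the list, ranks 60 and 61 tied at 0.70, and rank 62 had 0.67. Mean seedling signals ran from 4.71 to 13.32 with a median of 8.28. On 15 members the lowest seedling array was below background, and on 31 members every later leaf array was.

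Which probe sets entered depended on single arrays. Without seedling replicate 1, 13 of the 60 stayed among the first 60, and 2223 probe sets had a margin above 0. Without seedling replicates 2 and 3, 46 and 48 stayed. Leaving out replicate 1 or 3 of leaf at tillering kept 46 and 49, and each of the other later leaf arrays kept between 57 and 60. The median of the 60 was alike on the 3 seedling arrays, between 8.385 and 8.435. It was 5.595, 4.685 and 5.425 on the 3 arrays of leaf at tillering. The part of these differences between replicates in the results below was not tested, and the main counts are therefore also given for the 60 probe sets chosen without seedling replicate 1.

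Seedling leaf alone did not describe most of the list. On 46 members the mean of at least 1 group outside the leaf exceeded the seedling mean, and on 32 it did so by 1 or more. The highest group outside the leaf was coleoptile for 26 members, stem at stage 21 for 18, root for 14, and embryo and crease for 1 each. Coleoptile and stem at stage 21 were both above the seedling mean or within 1 of it on 31 members, and on 9 members neither was. Every array outside the leaf lay at least 1 below the lowest seedling array on 4 members, at ranks 1, 2, 4 and 60. For the counts so far no share over all tested probe sets was taken, so they describe the list alone. Every array outside the leaf was below background on 4 members, at ranks 4, 34, 53 and 60. Of all tested probe sets, 47.1% were below background on every array outside the leaf. With background at the 90th percentile of the reporters 2 members met this, and at the 99th, which 1 bright reporter sets, 59 did.

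**Figure D1:**
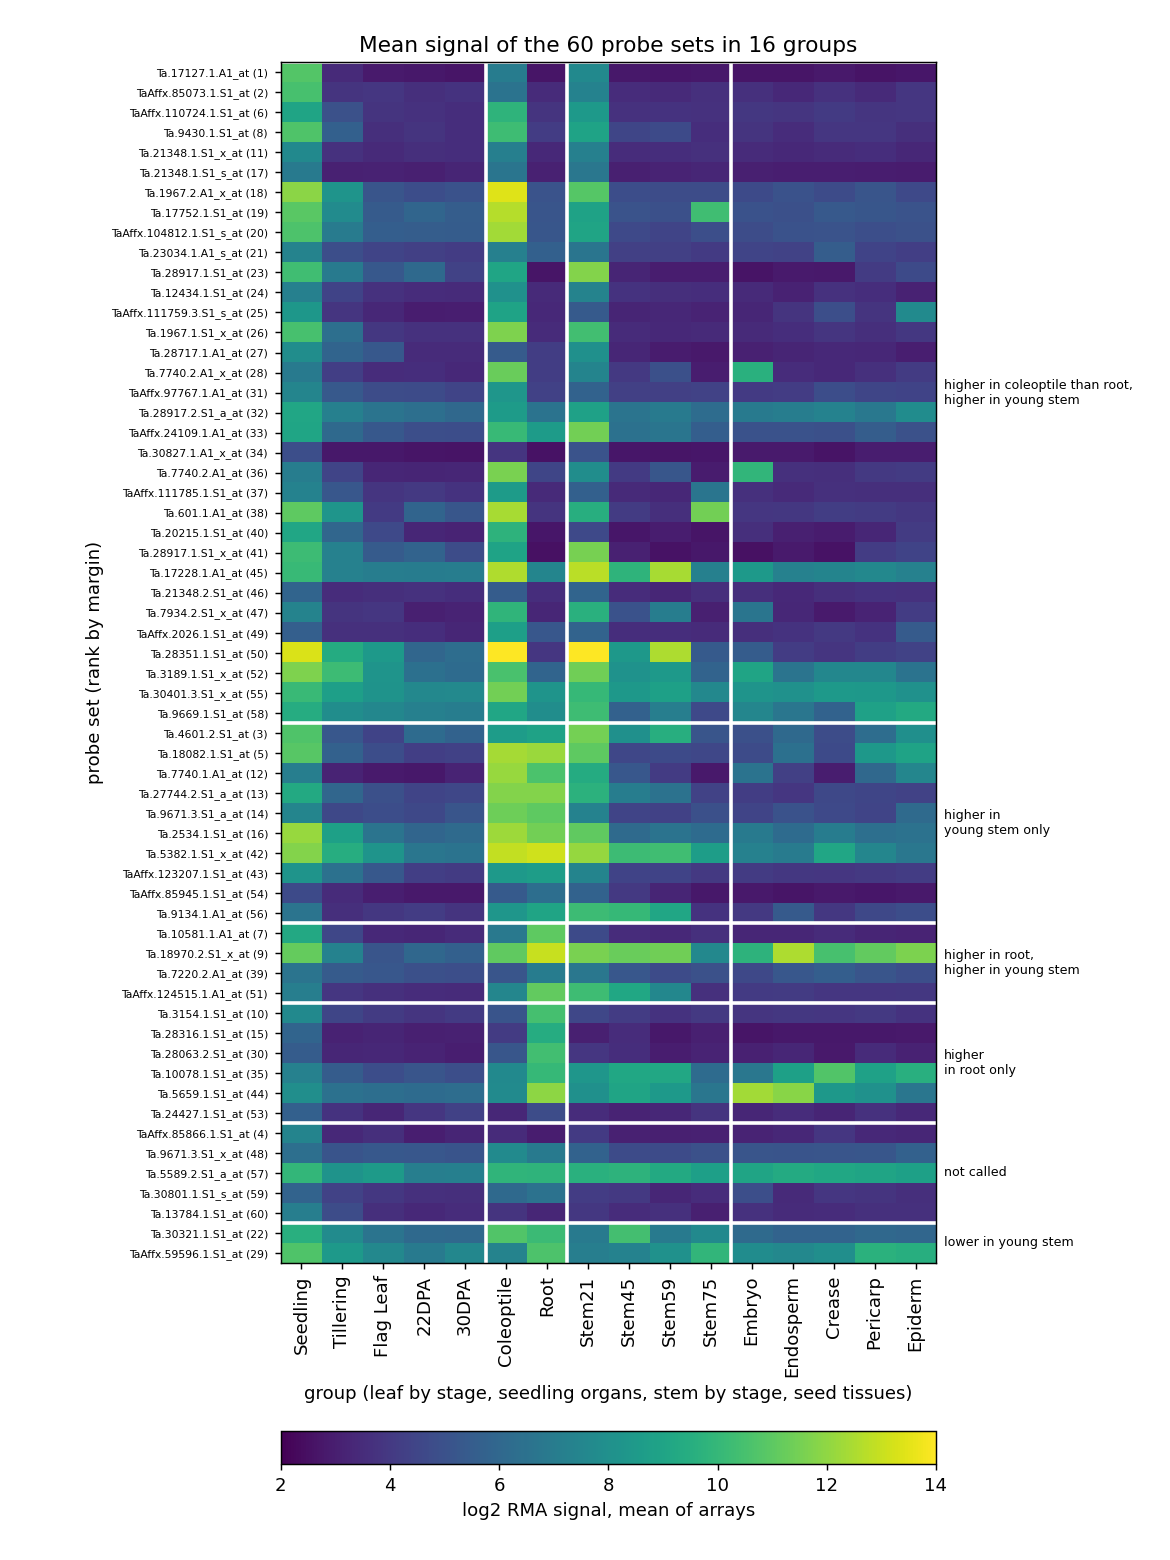
Mean log2 signal of the 60 probe sets (down the page, with the rank by margin in brackets) in 16 groups (across, leaf by stage, then coleoptile and root, stem by stage and seed tissues). Colour runs from 2 to 14, and white lines split the members by their calls between coleoptile and root and between young and later stem. The bright columns outside the leaf are coleoptile and stem at stage 21, with root bright in the lower blocks.

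By level, 52 members were above background in the mean of seedling leaf, 49 in coleoptile, 43 in stem at stage 21 and 29 in root. These counts were 81.7% of the members in coleoptile, against 35.1% of all tested probe sets, 71.7% against 34.1% in stem at stage 21, and 48.3% against 34.5% in root. All other groups outside the leaf had fewer members above background, between 11 in crease and 20 in stem at stage 59. The median member read 8.28 in seedling leaf, 8.71 in coleoptile, 7.96 in stem at stage 21 and 5.77 in root. It lay between 3.88 and 4.36 in the later stem and seed groups. Leaf at tillering had a median of 5.31 and 22 members above background, and the flag leaf groups had 12 or 13.

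**Figure D2:**
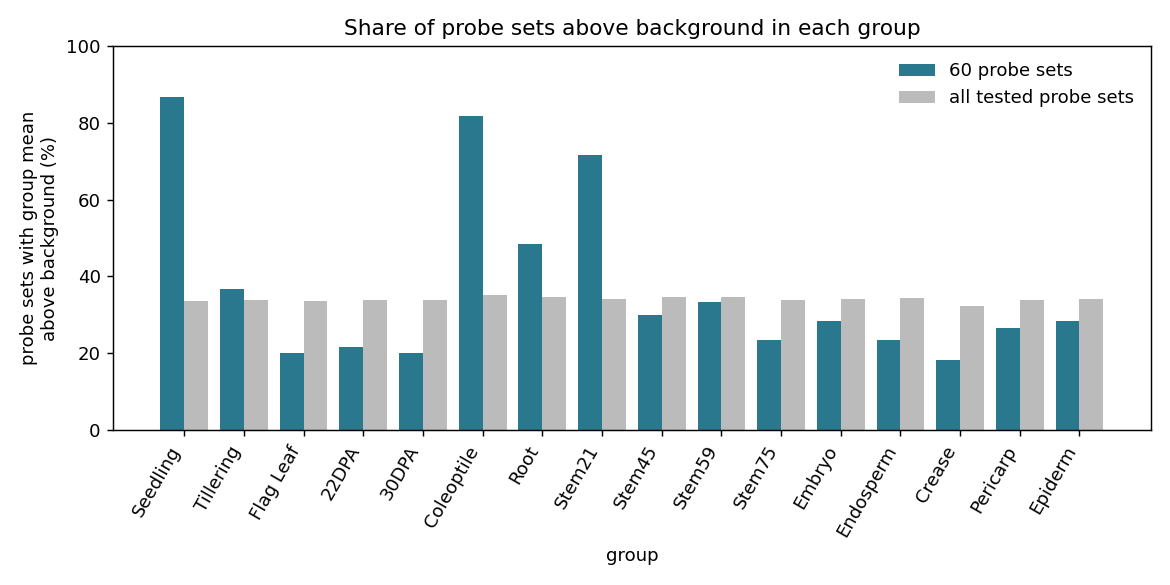
Share of probe sets (%, vertical axis from 0) whose group mean was above the background of 5.99, in each of 16 groups, for the 60 probe sets (blue) and for all tested probe sets (grey). The blue bars reach 81.7% in coleoptile and 71.7% in stem at stage 21, while the grey bars stay between 32.4% and 35.1% outside the leaf.

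A second view compared the other organs with later leaf, whose arrays helped to choose the members, and is a description. Every coleoptile array lay above every later leaf array on 52 members (11.9% of all tested probe sets), and every array of stem at stage 21 on 46 (11.3%). Root did so on 27 (16.7%). Of the later stems, stage 45 did so on 11 (13.7%), stage 59 on 10 (12.7%) and stage 75 on 4 (9.59%). Of the seed tissues, pericarp and epiderm did so on 9 each (14.1% and 15%), embryo on 8 (17.3%), endosperm on 5 (13.1%) and crease on 4 (16.1%). Coleoptile and young stem were thus the groups with most members over later leaf, root had fewer, and the rest were near or under the background shares.

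The remaining comparisons used only the 31 arrays outside the leaf, which the choice of members did not use. Calls needed a limma adjusted p under 0.05, over all 61115, and a difference of 1 or more. Where a group was below background on all its arrays, its level is known only as a bound. Differences from such a group are given as at least the value obtained with its arrays set at background, beside the fitted difference. Such a group took part in 41 of the 47 higher calls in young stem, and in 28 of the 33 higher and 5 of the 11 lower calls of coleoptile against root. In coleoptile against the stem groups it took part in 40 of 46. Median member differences are fitted values without bounds. Young stem was set against later stem first. At stage 21, 47 members were higher than the mean of stages 45, 59 and 75, and 2 were lower. Among the higher were ranks 25, 31, 34, 40 and 54. On these, young and later stem were both below background on all arrays, so no size is given. The background was 5.51% higher and 5.18% lower. The median member difference was 2.68, against -0.02 over all tested probe sets. On 41 members every array of stage 21 lay above all 9 later stem arrays, against 8.75% of all tested probe sets. Of the 60 probe sets chosen without seedling replicate 1, 59 were higher and 0 lower.

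Coleoptile was set against root, both from 7-day seedlings of AC Alta extracted alike. Coleoptile was higher on 33 members and lower on 11, and 16 were not called. On ranks 34 and 46 among the higher and 53 among the lower, both groups were below background on all arrays. No size is given for them. The background was 6.64% higher and 7.04% lower. The median member difference was 1.52, against -0.03 over all tested probe sets, and members ranged from -5.35 to 10.12. Arrays did not overlap on 36 members that were higher and 14 that were lower, against 18.9% and 24.9% of all tested probe sets. Of the 60 chosen without seedling replicate 1, 40 were higher and 11 lower.

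Shares of calls were also taken over probe sets that gave a signal. Among the 32337 probe sets above background on at least 1 array outside the leaf, 10% were higher and 9.66% lower in young than in later stem, and 12.1% were higher and 12.4% lower in coleoptile than in root. Among the other 624 probe sets with a margin above 0, these shares were 30.1% and 1.92% for stem, and 16.2% and 14.7% for coleoptile and root. The 60 members, at 78.3% and 3.33% for stem and 55% and 18.3% for coleoptile and root, were called more often than this wider list in the higher direction of both comparisons. That difference was not tested. In the same order, the 32337 and the 624 had 11% and 20.2% higher and 9.22% and 4.81% lower in coleoptile than in the stem groups. They had 14% and 20.7% higher and 9.9% and 6.57% lower in the vegetative groups than in seed, and 16.4% and 10.6% higher and 13.6% and 11.7% lower in embryo than in other seed.

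The pair of comparisons shared no array and split the 60 into 6 sets. In the first, 33 members were higher in coleoptile than in root and higher in young than in later stem. In the second, 10 were higher in young stem and not called between coleoptile and root. In the third, 4 were lower in coleoptile than in root and higher in young stem. In the fourth, 6 were lower in coleoptile than in root and not called in stem. In the fifth, 5 were called in neither, and the last held the 2 that were lower in young stem, of which 1 was also lower in coleoptile than in root. No member was called higher in coleoptile than in root without also being called higher in young stem. On ranks 25, 31, 34 and 40 that young stem call was made between groups wholly below background. How often the calls went together over all tested probe sets was not counted.

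**Figure D3:**
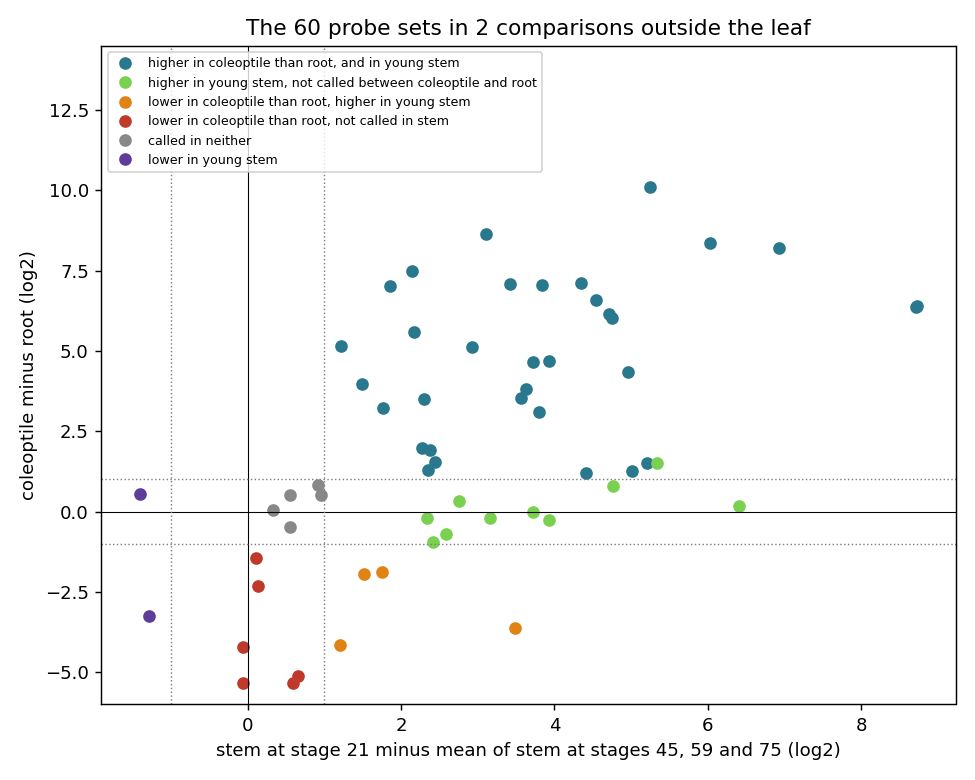
Each point is 1 of the 60 probe sets. The horizontal axis gives the log2 signal of stem at stage 21 minus the mean of stem at stages 45, 59 and 75, the vertical axis that of coleoptile minus root. Colours are the 6 sets of calls and dotted lines mark differences of 1. The 33 members of the first set fill the upper right, up to 8.72 across and 10.12 upwards, and 11 members lie below -1 on the vertical axis.

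Members of the first set had a median of 9.11 in coleoptile and 3.91 in root, and of 8.48 in young stem against 4.0, 3.77 and 3.65 at the later stages. In the seed tissues their medians lay between 3.66 and 4.16. In this set 30 of 33 were above background in coleoptile and 26 in young stem, against 5 in root. Outside the leaf most of the set was above background in coleoptile and the youngest internode sampled, and below it in root. The calls that defined the set used coleoptile, root and stem, so its levels there describe that choice. The same holds for the other sets.

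The member with the largest margin, at rank 1, belonged to this set. It read 10.89, 10.83 and 10.68 in seedling leaf, against 2.62 to 3.84 in later leaf, with a median of 2.80. Outside the leaf it read 7.58, 7.08 and 6.45 in coleoptile, against 2.60, 2.76 and 2.71 in root. Coleoptile and young stem, at 7.55, 7.81 and 7.79, were the only other groups above background, and their means differed from that of seedling leaf by -3.76 and -3.08. Coleoptile exceeded root by at least 1.04 (fitted 4.35, SE 0.176, adjusted p = 1.98e-17), and young stem exceeded later stem by at least 1.72 (fitted 4.95, SE 0.143, adjusted p = 8.82e-20). Rank 2 had the same order of groups. It read 10.91, 10.57 and 10.04 in seedling leaf, against 3.33 to 4.29 in later leaf. It read 6.82, 6.72 and 6.15 in coleoptile, against 3.57, 3.34 and 3.46 in root, and 7.41, 7.37 and 7.24 in young stem, against 3.29 to 3.82 in later stem. Its differences were at least 0.57 (fitted 3.11, SE 0.146, adjusted p = 5.02e-16) between coleoptile and root and at least 1.35 (fitted 3.80, SE 0.119, adjusted p = 5.01e-19) between young and later stem. These were the only members with all groups outside the leaf at least 1 below seedling leaf and yet above background in coleoptile and young stem.

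Within the set, 19 of 33 members had a coleoptile mean above the seedling mean, and the differences ran from -3.94 to 4.5. No share over all tested probe sets was taken for this count. The member at rank 8 read 11.99, 10.78 and 9.30 in seedling leaf and 5.81, 4.12 and 7.06 at tillering. Outside the leaf it read 10.05, 10.15 and 10.65 in coleoptile, against 4.14, 4.01 and 4.28 in root. The seedling arrays of this probe set spread over 2.69 and the coleoptile arrays lay within that spread. Young stem read 9.02, 8.77 and 9.13, against 3.50 to 4.73 in later stem, so no stem array overlapped. Rank 6 was alike, at 10.46, 8.38 and 8.17 in seedling leaf and 9.63, 9.80 and 10.04 in coleoptile, against 3.85, 3.96 and 3.56 in root. Coleoptile exceeded root by at least 4.29 (fitted 6.14, SE 0.164, adjusted p = 3.69e-21) at rank 8 and by at least 3.83 (fitted 6.03, SE 0.162, adjusted p = 3.97e-21) at rank 6.

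The largest fitted difference between coleoptile and the mean of the 4 stem groups was found at rank 18. This probe set read 12.93, 12.22 and 10.66 in seedling leaf and 9.15, 6.30 and 9.12 at tillering. It read 13.55, 13.38 and 13.37 in coleoptile, against 4.89, 5.12 and 5.24 in root, and 10.73, 10.68 and 11.06 in young stem, against 4.55 to 5.05 in later stem. Coleoptile exceeded the mean of the stem groups by at least 6.23 (fitted 7.13, SE 0.127, adjusted p = 2.32e-24) and root by at least 7.44 (fitted 8.35, SE 0.161, adjusted p = 5.62e-24). Cultivar and RNA extraction differ between coleoptile and stem and cannot be told apart from the organ.

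The largest fitted difference between young and later stem belonged to rank 41. It read 11.80, 11.48 and 11.34 at stage 21, against 2.80, 3.18 and 3.39 at stage 45, 2.68, 2.47 and 2.61 at stage 59, and 2.59, 2.76 and 2.90 at stage 75. All 9 later stem arrays were below background, so young stem exceeded later stem by at least 5.55 (fitted 8.72, SE 0.205, adjusted p = 8.73e-22). Rank 23 had the higher bound, at least 5.77 (fitted 8.71). On rank 41, young stem was also the group with the highest signal, above seedling leaf at 9.42, 10.88 and 10.35. Coleoptile read 8.83, 9.0 and 9.06 on rank 41, against 2.52, 2.60 and 2.53 in root. Seed was near the same low level except for the outer layers, at 3.27 and 4.95 in pericarp and 4.78 and 4.09 in epiderm. Rank 23, of the same cluster, followed rank 41 closely. Rank 32, also of this cluster, was above background in every group outside the leaf, with young stem higher than later stem by 2.28.

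LOC542989, at rank 50, had the largest fitted difference between coleoptile and root, and the highest bound. It read 14.06, 14.02 and 14.01 in coleoptile, against 3.91, 4.08 and 3.74 in root, a difference of at least 8.04 with root below background (fitted 10.12, SE 0.78, adjusted p = 2.25e-11). Coleoptile and young stem, at 14.10, 14 and 13.93, were alike. Later stem was uneven, at 5.17, 11.87 and 8.17 at stage 45, 12.43, 12.37 and 12.76 at stage 59, and 5.34, 5.06 and 5.75 at stage 75. Replicates also parted in leaf. Seedling leaf read 12.73, 13.50 and 13.73, against 11.95, 4.88 and 11.32 at tillering and 5.16 to 10.95 in flag leaf at booting. Young stem exceeded the mean of later stem by at least 5.04 (fitted 5.24, SE 0.637, adjusted p = 1.55e-07).

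LOC543233 was read by ranks 11 and 17, which share a cluster and moved together. The first read 8.49, 5.61 and 8.93 in seedling leaf, against 3.04 to 3.89 in later leaf. It read 7.98, 5.74 and 7.88 in coleoptile, against 3.40, 3.27 and 3.49 in root, and 5.86, 7.63 and 8.15 in young stem, against 3.44 to 3.76 in later stem. In each of the 3 groups with signal, 1 array lay below background while its group still stood clear of the groups set against it. Coleoptile exceeded root by at least 1.21 (fitted 3.81, SE 0.416, adjusted p = 2.1e-08), and young stem exceeded later stem by at least 1.22 (fitted 3.63, SE 0.34, adjusted p = 1.52e-09). At rank 17 these differences were at least 0.65 and 0.75 (fitted 3.55 and 3.56). The same arrays were low on it, at 4.96 in seedling leaf, 4.94 in coleoptile and 5.48 in young stem.

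Some members of the first set were also high in 1 seed or stem group. Ranks 36 and 28, of 1 cluster, were high in embryo. Rank 36 read 10.19, 10.12 and 9.36 in embryo, against 3.19 to 4.27 over endosperm, crease, pericarp and epiderm. Embryo was higher by at least 3.90 (fitted 6.05, SE 0.396, adjusted p = 7.11e-13). It read 11.57, 11.50 and 11.63 in coleoptile, 6.34, 9.26 and 8.08 in young stem and 6.91, 8.02 and 6.26 in seedling leaf. By group mean, coleoptile, embryo and young stem all stood above seedling leaf on this member.

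**Figure D4:**
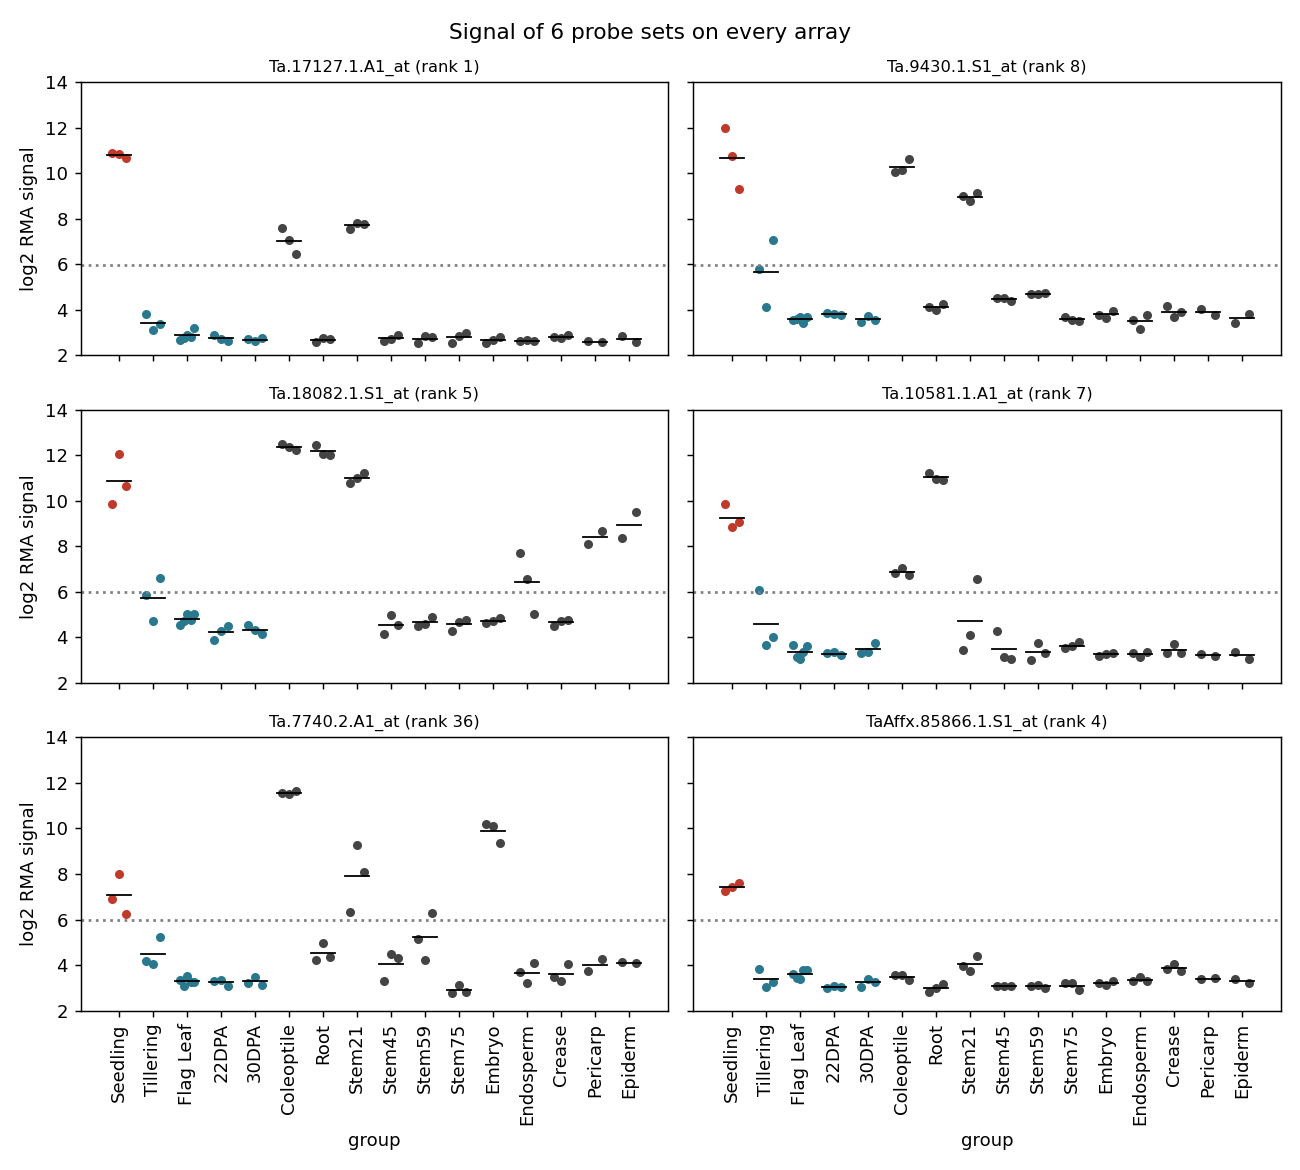
Log2 signal of 6 probe sets on every array (points) with the group mean (bar), for 16 groups. Red points are seedling leaf, blue points later leaf and grey points all groups outside the leaf, and the dotted line is the background of 5.99. Panels are titled with the ID and rank. Ranks 1 and 4 are highest in seedling leaf, at 10.68 or more and 7.27 or more. Ranks 36 and 5 have coleoptile at 11.50 or more and 12.22 or more, and rank 7 has root at 10.94 or more.

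The second set, with 10 members, had a median of 11.55 in coleoptile and 10.82 in root, and of 9.96 in young stem against 5.69, 5.59 and 4.47 at the later stages. The member at rank 5 showed this form. It read 9.88, 12.05 and 10.65 in seedling leaf, against 3.90 to 6.61 in later leaf. It read 12.50, 12.37 and 12.22 in coleoptile, against 12.46, 12.08 and 12.01 in root, and these overlapped. Young stem, at 10.80, 11.01 and 11.21, exceeded later stem, at 4.16 to 4.99, by at least 5.01 (fitted 6.40, SE 0.31, adjusted p = 4.65e-15). In seed it was above background on all arrays of the 2 outer layers, at 8.10 and 8.69 in pericarp and 8.38 and 9.52 in epiderm, and on 2 of 3 endosperm arrays, at 7.73, 6.58 and 5.03, while embryo read 4.63, 4.73 and 4.84.

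LOC780595, at rank 3, belonged to the second set. It read 10.42, 10.99 and 10.73 in seedling leaf, against 3.84 to 6.56 in later leaf. Coleoptile, at 8.44, 8.79 and 8.72, and root, at 8.78, 8.73 and 9.23, overlapped. Young stem, at 12.16, 11.66 and 10.68, stood above later stem, which read 7.36, 8.65 and 8.12 at stage 45, 9.47, 8.92 and 10.19 at stage 59, and 5.99, 4.63 and 4.83 at stage 75. The difference was at least 3.65 (fitted 3.93, SE 0.323, adjusted p = 1.32e-10). Rank 42 read 12.94, 12.92 and 12.90 in coleoptile, against 13.19, 13.08 and 13.13 in root, with 12.07, 12.05 and 11.26 in seedling leaf. It was above background in every group, and young stem exceeded later stem by 2.34 (SE 0.235, adjusted p = 5.54e-09).

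In the third and the fourth sets, root exceeded coleoptile. The largest such fitted difference belonged to rank 15, which read 3.87, 4.12 and 4.23 in coleoptile, against 9.56, 9.31 and 9.40 in root, so root was higher by at least 3.43 (fitted difference -5.35, SE 0.248, adjusted p = 3.97e-16). Its seedling signal was low, at 6.53, 5.60 and 5.41, so it straddled background, and root was the only group with a mean above it. On rank 10 root was higher by at least 4.46 (fitted difference -5.34, SE 0.268, adjusted p = 2.34e-15), with 5.07, 5.0 and 5.29 in coleoptile, against 10.79, 10.36 and 10.22 in root, and read 8.01, 7.71 and 7.38 in seedling leaf. On these members root was the brightest group and seedling leaf came next.

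Rank 7 resembled them. It read 9.87, 8.84 and 9.08 in seedling leaf, and 6.82, 7.04 and 6.76 in coleoptile, against 11.21, 10.98 and 10.94 in root, a difference of -4.17 (SE 0.431, adjusted p = 7.72e-09). Its call in stem rested on 1 array. Young stem read 3.43, 4.13 and 6.57, against 3.03 to 4.29 in later stem, and the difference of 1.20 (adjusted p = 0.00797) became 0.27 (adjusted p = 0.411) without stem at stage 21 replicate 3. With only the stem arrays in the limma fit, its adjusted p was 0.0763. With later stem set at background no difference remained. Rank 9 was bright in all 11 groups outside the leaf. It read 10.75, 11.23 and 11.21 in coleoptile, against 13.02, 12.93 and 13.05 in root, and its lowest group there was stem at stage 75, at 7.86, 7.5 and 7.38. Later leaf read 4.55 to 8.72.

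LOC606366, at rank 53, was above background on 1 seedling array alone. It read 5.30, 6.10 and 5.68 in seedling leaf, against 3.14 to 4.55 in later leaf. Coleoptile read 3.51, 3.56 and 2.93, against 4.41, 4.28 and 5.67 in root. It was called lower in coleoptile (limma adjusted p = 1.05e-05), but both groups were below background, so no size is given.

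Of the fifth set, ranks 4 and 60 were below background on every array outside the leaf. The member at rank 4 read 7.27, 7.41 and 7.59 in seedling leaf, against 3.0 to 3.84 in later leaf. Outside the leaf its highest array was 4.40, in stem at stage 21. No array outside seedling leaf came within 2 of it or above background. Coleoptile read 3.56, 3.56 and 3.34, against 2.81, 2.98 and 3.16 in root, both below background and not called. The last member, at rank 60, read 6.72, 8.49 and 6.24 in seedling leaf, with 4.45, 4.44 and 5.54 at tillering, and no array outside the leaf above 4.36. It shared its margin with rank 61, so its place in the list was decided by the order of the table. The other 3 of the set were singled out after their values were seen. Ranks 48 and 59 were above background in coleoptile and root alone outside the leaf, and rank 57 in every group.

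The 2 members that were lower in young stem were named after their values were seen. Rank 22 read 6.04, 6.35 and 8.41 at stage 21, against 11.71, 10.33 and 9.14 at stage 45, 7.02, 6.87 and 6.84 at stage 59, and 7.44, 7.38 and 8.25 at stage 75. The difference was -1.40 (SE 0.37, adjusted p = 0.00356), and arrays overlapped. Rank 29 differed by -1.28 (SE 0.249, adjusted p = 0.000147) and was highest at stage 75, at 9.76, 9.87 and 10.10. The count of 2 became 1 without replicate 1 of stem at stage 21 and 0 without replicate 2.

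Coleoptile against the mean of the 4 stem groups gave 46 members higher and 0 lower, on a background of 6.08% higher and 5.18% lower. Among the higher were ranks 10, 30 and 54. On these, coleoptile and all 4 stem groups were below background on all arrays, so no size is given. The median member difference was 2.71, against -0.01 over all tested probe sets. Of these 60, 51 had an unadjusted limma p under 0.05 (46.9% of all tested probe sets). On 27 members every coleoptile array was above every stem array, against 8.54% of all tested probe sets. Cultivar and extraction cannot be told apart from organ here. The 60 chosen without seedling replicate 1 gave 48 higher and 2 lower.

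Root, coleoptile and stem together exceeded the seed tissues on 36 members and were lower on 0, on a background of 7.45% higher and 5.29% lower. An unadjusted limma p under 0.05 was found for 54 of the 60 (63.5% of all tested probe sets). The median member difference was 1.56, against -0.05 over all tested probe sets. In the 5 seed tissues the median member read 3.93 to 4.35, below background, and no bounds were computed for this comparison. The 1.56 is therefore a fitted value and not a measured size. On no member were all 18 arrays of the vegetative side above all 13 of the seed side (0.337% of all tested probe sets), nor all below (0.828%), so no single member is described. Extraction differed between several of these groups. Without pericarp replicate 2, 1 member was lower. The 60 chosen without seedling replicate 1 gave 47 higher and 3 lower.

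Embryo, the seed tissue that holds the young shoot, was set against the mean of the other 4 seed tissues. It was higher on 8 members and lower on 5, and 47 were not called. The background was 9.14% higher and 7.29% lower, so members were called about as often as any probe set. The median member difference was -0.08, against -0.02 over all tested probe sets. Arrays did not overlap on 7 members that were higher and 4 that were lower, against 10.9% and 6.11% of all tested probe sets. Without epiderm replicate 2, 9 members were lower. A group below background on all its arrays took part in 5 of the 8 higher and 3 of the 5 lower calls. On rank 59, called higher, embryo and the other 4 tissues were all below background, so no size is given. Of the 8, 3 were ranks 12, 28 and 36, of 1 cluster. Rank 44, singled out after its values were seen, was among the rest, at 12.40, 12.36 and 12.28 in embryo, against 6.71 to 12.29 in the others. Embryo was higher than the mean of the others by 3.59 (SE 0.223, limma adjusted p = 2.5e-13), but arrays overlapped. Endosperm was nearly as high as embryo on this member, with a mean of 11.85 against 12.35.

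The largest difference in the lower direction belonged to rank 35. It read 6.61, 6.56 and 7.17 in embryo, against 8.60, 8.55 and 9.28 in endosperm, 10.79, 10.67 and 10.70 in crease, 9.13 and 8.65 in pericarp, and 9.96 and 9.21 in epiderm. Embryo differed by -2.72 (SE 0.281, adjusted p = 5.05e-09), and no array overlapped. It was the 1 member whose highest group outside the leaf was crease. The others that were lower in embryo were ranks 3, 5, 9 and 25, the last of these named after its values were seen. With the 60 chosen without seedling replicate 1, 8 were higher and 16 lower.

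Members of a cluster did not weigh much in these counts. With 1 member kept per cluster, which left 52, young stem was higher on 40 and lower on 2, and coleoptile was higher than root on 26 and lower on 11. Coleoptile was then higher than stem on 38 and lower on 0.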

How the data were processed

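Signals of 48 Affymetrix wheat arrays were used as the log2 values the authors deposited. RMA, a background, normalization and summary method, is named in the submitters' processing notes, and its software and settings are not given there. The base of the log was taken as 2, since values ran from 1.92 to 15. The 111 AFFX control and 64 reporter probe sets stayed out of ranks and tests. Array medians lay between 4.87 and 5.03, and the number of arrays limits the precision.

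Groups came from the sample titles. Replicates are called biological in the labels without a word on shared plants, so p-values measure the spread between samples, which may in part be technical. Same-numbered samples of different groups did not deviate together (mean correlation 0.0037 over 146 pairs, 9 of them above 0.1), so numbers were not taken as pairs.

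Tests used limma 3.58.1 in R 4.3.3 on the 31 arrays outside the leaf, with 1 mean per group (20 residual and 5.66 prior degrees of freedom). Leaf arrays stayed out because the ranking favours probe sets with little spread there. Bounds, chosen after the data were seen, set the arrays of a group that was wholly below background at that level. Tests were two-sided, with Benjamini-Hochberg adjustment over 61115 probe sets. On simulated data of 61115 probe sets for coleoptile against root, 48% of 50 probe sets changed by 1 were recovered, 92% at 1.5 and 100% at 2, with 1 false call. A change of 1 equals the minimum for a call, so its recovery mostly reflects that threshold. The simulation changed few probe sets, kept the others level across groups and used normal noise, unlike the data.

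The members, the lists and the naming rule were chosen with earlier results of these data known. Named were the 10 largest margins, the largest called rise and fall without overlap in each comparison, the 3 highest means and 3 lowest maxima outside the leaf, the edge of the list and members with a gene symbol. Symbols came from GEO's platform annotation, which left 59842 tested probe sets unnamed here. Members are told apart by rank, and their IDs stand in 2 of the plots. Alternatives covered normalization, filters, the fit, thresholds, single arrays and the choice of members.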

Additional observations from a re-analysis of the deposited data

Results flagged for a closer look

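Single arrays were examined in flag leaf at booting alone, the group with the most arrays, and the other groups were not examined in this way. Of the 21 named members, 2 had an array far from the other 4 by Dixon's criterion, whose critical value for 5 samples is 0.71. The ranking used the highest later leaf array, so these flag leaf values helped to choose the members. The usual chance rate of about 1 in 20 need not hold for them, and the 2 are given as a description. At rank 18 the lowest array read 4.59 and the nearest 5.22, a ratio of 0.808. At rank 42 the highest array read 9.32 and the nearest 8.07, a ratio of 0.786. Neither array set a margin, since an array of leaf at tillering was the highest later leaf array on both members.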

How the results depend on the processing

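Over 2747 values recomputed for named members under the alternatives, no difference changed sign where it was called as deposited or under the alternative. Changes of sign between uncalled differences were not counted. Of 105 pairs of member and comparison, 14 lost or gained a call under some alternative (13 losses and 28 gains), and the cause was not tested. Counts of members that were higher stayed within 1.5 times their value in each comparison. Without a minimum difference, 1 member was lower in coleoptile than in stem, 12 in embryo and 2 in the vegetative groups than in seed. Choosing members by group means kept 25 of the 60. It gave 5 lower in coleoptile than in root, 0 lower in young stem, 16 lower in embryo, and 2 below background throughout outside the leaf. Choosing them without seedling replicate 1, added after the data were seen, gave 0 lower in young stem, 2 in coleoptile than in stem, 16 in embryo and 3 in the vegetative groups. With background at the 90th and 99th percentile of the reporters, 2 and 59 members lay below it outside the leaf. Leaving out single arrays gave 0 to 2 lower in young stem, 5 to 9 in embryo and 0 to 1 in the vegetative groups, and kept 13 to 60 members.

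Centring arrays on the hybridization spikes moved the median of all probe sets to -0.37 for coleoptile minus root, -0.21 for young stem, 0.18 for coleoptile minus stem and 0.39 for embryo. The split of all calls became 3169 higher and 7176 lower (4059 and 4303 as deposited) for coleoptile against root, and 2744 and 4778 (3369 and 3167) for young stem. It became 4771 and 2260 (3714 and 3166) for coleoptile against stem, and 9415 and 2951 (5583 and 4454) for embryo. Members were then 30 higher and 13 lower, 47 and 2, 47 and 0, and 9 and 4 in the same order. With the replicate block the members' counts were 33 and 11 for coleoptile against root, 47 and 2 for young stem, 46 and 0 for coleoptile against stem, 8 and 5 for embryo, and 36 and 0 for the vegetative groups, as without it.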
